A study of Mus musculus with 24 samples.

Results

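The genes described here encode anti-Müllerian hormone, the inhibin and activin subunits, the follistatins and their receptors: Amh, Amhr2, Inha, Inhba, Inhbb, Fst, Fstl3, Acvr2a, Acvr2b and Acvr1b. They were chosen by symbol, and all 10 were found among the 32040 gene symbols of the deposited tables. RNA was measured in 24 libraries of supporting cells sorted from fetal mouse gonads, with 3 libraries in each of 8 groups. Pre-granulosa cells, the supporting cells of the fetal ovary, came from XX embryos of the Tg(Enh8-mCherry) line, and Sertoli cells, those of the fetal testis, came from XY embryos of the SOX9-IRES-GFP line. Each was collected on embryonic days E11.5, E12.5 and E13.5 and again on E15.5, and no treatment is given in the labels. Sex, mouse line and fluorescent reporter changed together, so their parts in a difference between XX and XY libraries cannot be told apart. The XY cells were sorted on a reporter at Sox9, so the level of Sox9 itself is no finding between the sexes. The groups below are named by sex and stage.

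Anti-Müllerian hormone (AMH) is a member of the transforming growth factor β family that Sertoli cells secrete, and it acts through the type II receptor AMHR2 to make the Müllerian ducts of the male regress. Inhibins are dimers of the α subunit (Inha) with a β subunit (Inhba encodes βA, Inhbb encodes βB), whereas activins are dimers of β subunits alone. Activins bind the type II receptors ACVR2A and ACVR2B, which recruit the type I receptor ACVR1B and lead to phosphorylation of SMAD2 and SMAD3. Inhibin competes for the type II receptors, and follistatin (Fst) and follistatin-like 3 (Fstl3) bind activins and keep them from their receptors.

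In the mm10 build (GENCODE M21 annotation), Amh lies on chromosome 10 at 80805243-80807648, Amhr2 on chromosome 15 at 102445367-102454633, Inha on chromosome 1 at 75507077-75510366 and Inhbb on the same chromosome at 119415465-119422248. No other annotated gene overlaps these 4. Inhba lies on chromosome 13 at 16011851-16031621, Acvr2b on chromosome 9 at 119402118-119434995 and Acvr1b on chromosome 15 at 101174067-101213684, and their exons overlap those of no other gene. Exons of the other 3 overlap a gene on the opposite strand, and whether reads were counted by strand is not given in the sources used here. Fst (chromosome 13, 114452290-114458951) overlaps the antisense gene Gm47040, which has no row in the deposited tables. Fstl3 (chromosome 10, 79777272-79782630) overlaps Prss57, whose group means were at most 0.145 CPM (counts scaled to library size). Acvr2a (chromosome 2, 48814109-48903269) overlaps Orc4, whose group means were 77.0 to 121.4 CPM, and the estimated counts of Acvr2a were not whole numbers in any of the 24 libraries. The values of Acvr2a are therefore uncertain where reads could be shared.

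RefSeq promoter windows (GRCm38.p6) matched 8 of the 10 genes, and Amh and Fst had no entry. The RefSeq start of Inha lay 532 bases from its GENCODE start, and its window is not shown. The 250 bases before the start are shown for Amhr2, Inhbb and Acvr1b. Amhr2 was high in every group, and Inhbb and Acvr1b came to be higher in XY cells. Capitals mark a match to the NR5A1 half-site AAGGTCA in Amhr2 and to the GATA core AGATA (on the opposite strand) in Inhbb. Each sequence is written 5′ to 3′ on the strand of its gene, from chr15:102445117-102445366 (plus strand), chr1:119422249-119422498 (minus strand) and chr15:101173822-101174071 (plus strand) in this order.
Amhr2: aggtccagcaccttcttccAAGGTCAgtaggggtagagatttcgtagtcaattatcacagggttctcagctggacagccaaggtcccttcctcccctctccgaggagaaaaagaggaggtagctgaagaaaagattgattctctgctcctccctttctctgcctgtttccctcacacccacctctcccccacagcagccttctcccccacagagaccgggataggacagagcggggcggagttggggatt
Inhbb: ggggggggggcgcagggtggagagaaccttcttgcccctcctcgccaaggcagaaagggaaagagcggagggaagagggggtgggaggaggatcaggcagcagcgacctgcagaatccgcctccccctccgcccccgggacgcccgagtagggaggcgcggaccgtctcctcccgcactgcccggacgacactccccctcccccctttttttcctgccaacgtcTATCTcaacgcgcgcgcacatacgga
Acvr1b: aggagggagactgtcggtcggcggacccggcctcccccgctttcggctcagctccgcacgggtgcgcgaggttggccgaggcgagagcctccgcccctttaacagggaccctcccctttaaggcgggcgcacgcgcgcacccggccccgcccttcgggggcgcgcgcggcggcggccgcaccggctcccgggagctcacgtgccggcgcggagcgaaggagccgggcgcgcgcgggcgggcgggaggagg
The match in Amhr2 lies 231 to 225 bases before the start, and AAGGTCA occurs in 4.08% of the 32851 windows of that length in the table, counted on both strands. The match in Inhbb lies 26 to 22 bases before the start, and AGATA occurs in 26.6% of windows. The window of Acvr1b holds none of the motifs searched, which were these 2 and ACAAT (SOX core, in 27.7% of windows), GTAAACA (forkhead, in 3.17%) and TGACG (half-site of the cAMP response element, in 17.8%). ACAAT was found in the windows of Inhba, Fstl3 and Acvr2a. A match is a description of the letters in the window only.

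The libraries held 11275251 to 37256881 counts. The Y-linked genes Ddx3y, Kdm5d, Uty and Eif2s3y had group means of at least 19.5 TPM in XY and at most 0.267 TPM in XX. Xist was at 4.25 TPM in XY E11.5 replicate 3 and 0.71 TPM in replicate 2, against 6.62 to 11.8 TPM in XX E11.5. XX E13.5 replicate 1 is given as E13.5 in its title and as E12.5 in its stage field, and it was kept at E13.5. The 5 Sertoli markers listed (Sox9, Dhh, Ptgds, Cldn11 and Fgf9) summed to 655.5 to 1114 TPM in XY E11.5 and at least 2806 TPM in every later XY library, against at most 109.9 TPM in any XX library. Without Sox9, the gene of the sort, the other 4 summed to 155.2 to 254.9 TPM in XY E11.5 and 15.2 to 31.4 TPM in XX E11.5, and Cldn11 overlapped between these groups. In XX libraries the 5 pre-granulosa markers (Foxl2, Wnt4, Rspo1, Irx3 and Bmp2) summed to 65.4 to 197.2 TPM at E11.5 and at least 169.0 TPM later. XX E11.5 replicate 2 stood apart, with Foxl2 at 15.8 TPM against 1.35 and 2.32 TPM and Irx3 at 82.8 TPM against 9.39 and 3.74 TPM, and replicate 1 had the highest Sox9 (91.0 TPM against 27.7 and 28.6 TPM). Markers of other cells were also present. The 6 erythroid markers summed to 7487 to 63130.5 TPM in XX E11.5, against 23.3 to 60.1 TPM in XY E11.5. In later libraries they summed to 1494 to 3469, 1141 to 1314 and 415.2 to 558.0 TPM in XX, in stage order, and to 25.0 to 56.2, 35.2 to 71.2 and 183.8 to 279.9 TPM in XY. The 5 immune markers summed to 87.0 to 251.9 TPM in XX E11.5 against 0.27 to 1.30 TPM in XY E11.5, and later to 19.6 to 43.9 TPM in XX against at most 0.56 TPM in XY. Interstitial markers (5 genes) summed to 94.1 to 180.6 TPM in XX E11.5 and 136.5 to 189.4 TPM in XY E11.5, and to 44.5 to 111.1 TPM in later XX libraries but 7.11 to 18.9 TPM in later XY libraries. The 5 fetal Leydig and steroidogenic markers summed to 168.4 to 240.00 TPM in XX E11.5 and 235.0 to 297.3 TPM in XY E11.5, and Insl3 was at no more than 1.63 TPM in the mean of either. In later XX libraries these 5 summed to 65.2 to 91.0, 152.6 to 163.7 and 240.0 to 262.8 TPM, in stage order. Later XY libraries had 45.7 to 66.8, 70.9 to 74.3 and 52.1 to 91.9 TPM. Surface epithelium markers (4 genes) were at 25.7 to 80.1, 138.6 to 145.7 and 231.0 to 276.8 TPM in XX libraries from E12.5 on, in stage order, and at no more than 2.71 TPM in XY libraries of those stages. Endothelial markers (5 genes) were at no more than 16.4 TPM in any library, and germ cell markers (6 genes) were at 108.0 to 170.2 TPM in XX E15.5 and 40.5 to 74.2 TPM in XY E15.5. The part of these cells in the results below was not tested, and in bulk samples fewer cells of a type and less RNA per cell cannot be told apart.

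All 10 genes passed the filter on low counts. At each stage 7 of the 10 differed between XX and XY at an adjusted p under 0.05 (edgeR's quasi-likelihood test, Benjamini-Hochberg over all 16190 genes tested). At E11.5, XX was the higher sex for 6 of them and XY for 1, where 42.0% of all genes tested were called (21.4% higher in XX, 20.6% in XY). At E12.5 the split was 3 to 4, beside 62.1% of all genes (30.5% and 31.5%), and it was the same at E13.5, beside 66.1% (32.8% and 33.3%). At E15.5 it was 2 to 5, beside 69.4% of all genes (34.9% and 34.4%). The libraries of the sexes did not overlap for 5, 8, 9 and 8 of the 10 genes at these stages, beside 39.9%, 68.8%, 76.8% and 77.2% of all genes. The count of 7 was thus close to the share over all genes at the later stages. The difference between the sexes changed with stage for 8 of the 10 (test of interaction), all but Inhba and Acvr2a, beside 70.1% of all genes. By interval, the step of XX differed from that of XY for 7 genes (E11.5 to E12.5), 2 genes (E12.5 to E13.5) and 3 genes (E13.5 to E15.5), beside 40.1%, 25.2% and 25.8% of all genes. When the E11.5 difference was fitted on the 6 libraries of that stage alone, 2 of the 7 calls remained, Inha and Fst, and that fit called 16.4% of all genes. Nothing in the labels says that libraries of a group came from separate animals, so these p-values measure the spread between these samples, which may be technical. In the following, levels are in the length-adjusted unit TPM in which genes can be compared, and differences are log2 values from the count model with their approximate standard error (SE).

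**Figure D1:**
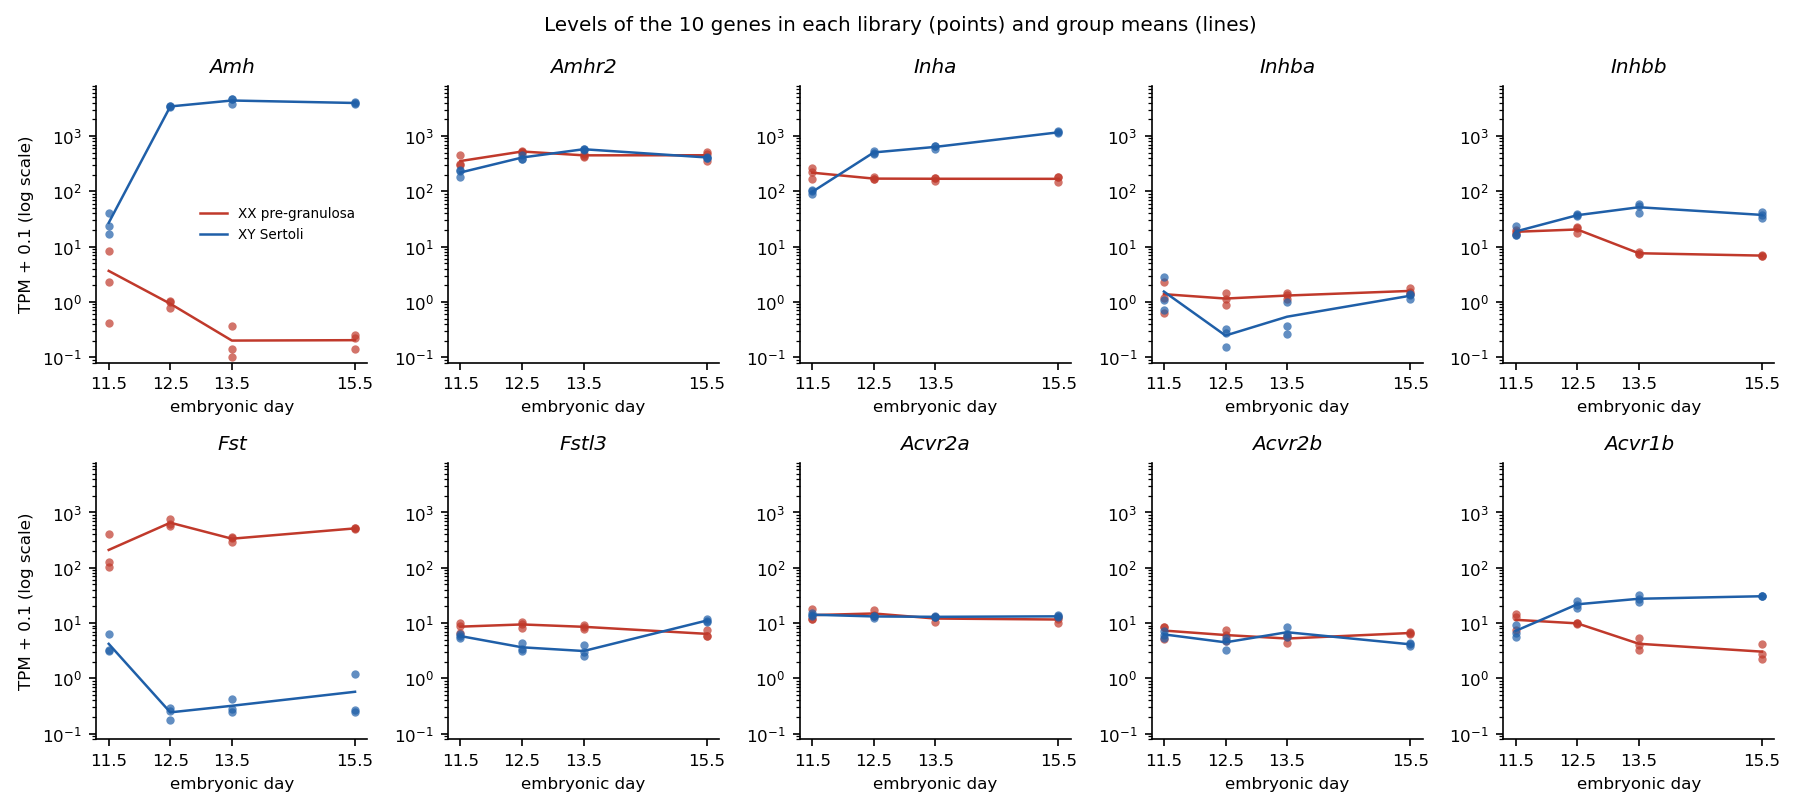
Level of each of the 10 genes in each library (points, TPM plus 0.1 on a log axis) against embryonic day, with lines through the group means of XX pre-granulosa (red) and XY Sertoli (blue) cells. Amh and Fst part the sexes at every stage, Inha and Acvr1b cross between E11.5 and E12.5, and Acvr2a stays between 9.96 and 17.9 TPM in every library.

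Amh, the hormone gene, went from a low to a very high level in XY cells within 1 stage and was close to the detection limit in XX cells from E13.5. XY E11.5 libraries had 23.1, 40.5 and 16.9 TPM of Amh, and XY E12.5 libraries had 3451, 3435 and 3368 TPM. This rise was 7.19 on the log2 scale (SE 0.49, adjusted p 3.2e-10 in edgeR), and no later XY step passed the test. XY E13.5 libraries held 4659, 3859 and 4605 TPM and XY E15.5 libraries 3955, 4051 and 3830.0 TPM, so the last 3 XY groups lay within 3368 to 4659 TPM. In XX E11.5, the libraries of replicates 1 to 3 held 8.07, 2.22 and 0.32 TPM, a spread wider than that of any other XX stage, and the highest was the replicate with the most Sox9. XX E12.5 libraries held 0.88, 0.93 and 0.67 TPM. The fall from XX E11.5 to XX E12.5 passed the test (log2 -2.16, SE 0.61, adjusted p 0.011 in edgeR), but it was -0.92 with adjusted p 0.25 without XX E11.5 replicate 1, and under no form of limma on TPM did it pass. XX E13.5 libraries held 4, 1 and 0 reads of Amh and XX E15.5 libraries 2, 2 and 1.

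XX and XY libraries did not overlap in Amh at any stage. At E11.5 the difference was -2.86 (XX minus XY, SE 0.46, adjusted p 4.6e-05 in edgeR), and at E12.5 it was -12.20 (SE 0.63, adjusted p 1.8e-12). As a ratio of pooled CPM, XY was 7.17 times XX at E11.5 (95% exact interval 6.22 to 8.30, for counting error only) and 4751 times at E12.5 (3667 to 6273). XX E11.5 replicate 1 held 147 of the 206 XX reads at E11.5, and without it the ratio there was 16.7 (12.9 to 21.9) and the difference -4.10 (adjusted p 4.8e-07 in edgeR). With 5 XX reads in all at each of the last stages, the ratio was 48819 at E13.5 (20919 to 150352) and 42337 at E15.5 (18141 to 130389), and these intervals overlap widely. At E13.5 the ratio was 179266 without XX E13.5 replicate 1, which held 4 of the 5 reads, and 32103 without replicate 2. The E11.5 difference had an adjusted p of 0.059 when fitted on its own 6 libraries.

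The receptor gene Amhr2 was among the highly expressed members in both sexes and moved little by comparison. Its group means ran from 218.5 ± 30.0 TPM (SD, n = 3) in XY E11.5 to 575.3 ± 9.52 TPM in XY E13.5, a 2.63-fold range. XX E11.5 libraries held 306.6, 445.9 and 303.9 TPM against 239.0, 232.5 and 184.1 TPM in XY E11.5, and the groups did not overlap (log2 difference 0.79, SE 0.15, adjusted p 0.00026 in edgeR). From XY E11.5 to XY E12.5, Amhr2 rose by 1.08 (SE 0.15, adjusted p 4.2e-06) to 445.8, 390.1 and 386.4 TPM. Later XX libraries held 354.2 to 538.0 TPM and later XY libraries 386.4 to 584.1 TPM. No later difference between the sexes passed in the count model fitted on all libraries, but 2 of them passed under other settings. On the TPM scale, limma on log2(TPM + 1) gave 0.36 at E12.5 (adjusted p 0.028) and -0.37 at E13.5 (adjusted p 0.024). In counts, edgeR on the libraries of a stage alone gave 0.21 at E12.5 (adjusted p 0.035) and -0.27 at E13.5 (adjusted p 0.0023). The E13.5 difference also passed in edgeR (-0.30, adjusted p 0.0045) without XX E11.5 replicate 2 and XY E11.5 replicate 3, a choice made after seeing the data. The interaction of sex and stage passed (adjusted p 0.00131 in edgeR). In XX E11.5, the highest Amhr2 was in replicate 2, the library with the most Foxl2 and Fst. The called XX step from E11.5 to E12.5 (0.46, adjusted p 0.022) was lost without XX E11.5 replicate 1 (0.33) or 3 (0.36) and without XX E12.5 replicate 1 (0.45) or 2 (0.46). Both later XY steps of Amhr2, 0.48 up to E13.5 and -0.50 down to E15.5, were likewise lost when single libraries were left out: XY E12.5 replicate 2 or 3 or any XY E13.5 library for the first (0.45 to 0.49), and XY E13.5 replicate 2 or 3 or XY E15.5 replicate 1 or 2 for the second (-0.50 to -0.47).

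The inhibin α gene Inha reversed its order between the sexes. In XX E11.5, libraries held 262.5, 166.9 and 220.9 TPM, all above the 88.5, 103.5 and 100.02 TPM of XY E11.5. The difference was 1.22 (XX minus XY, SE 0.10, adjusted p 5.7e-09 in edgeR). By E12.5 XY libraries had risen to 541.0, 490.6 and 479.3 TPM (log2 step 2.57, SE 0.11, adjusted p 7.2e-14), while XX libraries held 178.2, 163.2 and 166.4 TPM. All XY libraries were then above all XX libraries. XX minus XY was -1.77 at E12.5 and -1.86 at E13.5 (SE 0.10 each), and -2.74 in the E15.5 libraries (SE 0.11, adjusted p 6.6e-15). XY E13.5 libraries held 591.1, 660.9 and 650.5 TPM and XY E15.5 libraries 1113, 1155 and 1222 TPM, a further rise of 0.87 (SE 0.10, adjusted p 2.8e-06). The smaller XY step from E12.5 to E13.5 (0.31, adjusted p 0.038) was lost without XY E12.5 replicate 2 (0.29) or 3 (0.28) and without XY E13.5 replicate 2 (0.27) or 3 (0.29). XX libraries of E13.5 and E15.5 held 147.3 to 178.4 TPM. After the fall of 0.43 on the log2 scale from XX E11.5 to XX E12.5 (SE 0.10, adjusted p 0.0026), no XX step of Inha passed the test. That fall was lost in edgeR fitted on the libraries of those groups alone (-0.46, adjusted p 0.087). It was also lost in limma on log2(TPM + 1) with no filter (-0.33, adjusted p 0.052). The step from E11.5 to E12.5 differed between the sexes by -3.00 (XX step minus XY step, SE 0.14, adjusted p 2.9e-12).

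Inhbb, the βB gene, was the main β subunit transcript in every group. At E11.5 the sexes overlapped, with 19.7, 16.99 and 18.5 TPM in XX and 15.97, 23.7 and 16.2 TPM in XY (a difference of 0.06, SE 0.14, adjusted p 0.74 in edgeR). Later they moved apart in both directions. In XY, Inhbb rose by 1.19 (SE 0.14, adjusted p 4.7e-07) to 36.4, 35.4 and 38.7 TPM at E12.5, and held 40.8, 54.5 and 58.7 TPM at E13.5 and 41.7, 37.8 and 32.4 TPM at E15.5. In XX it stood at 17.5, 22.2 and 21.2 TPM at E12.5 and then fell by 1.21 on the log2 scale (SE 0.15, adjusted p 6.4e-06) to 8.05, 7.12 and 7.27 TPM at E13.5. XX E15.5 libraries held 6.68, 6.99 and 6.65 TPM. The difference was -1.06 in E12.5 libraries (SE 0.14), -2.73 in E13.5 libraries (SE 0.15, adjusted p 1.7e-12) and -2.40 in E15.5 libraries (SE 0.15), without overlap of the groups at any of these stages. The difference between the sexes' steps passed the test for E11.5 to E12.5 (-1.13, SE 0.20, adjusted p 0.00013) and for E12.5 to E13.5 (-1.66, SE 0.20, adjusted p 1.1e-05). The XY steps after E12.5 (0.45 up to E13.5 and -0.47 down to E15.5) were each lost when some single libraries were left out: XY E12.5 replicate 1 (0.45) or 2 (0.42) and XY E13.5 replicate 2 (0.40) or 3 (0.35) for the first, and XY E13.5 replicate 2 (-0.42) or 3 (-0.37) and XY E15.5 replicate 2 (-0.47) or 3 (-0.39) for the second.

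Inhba, the βA gene, was low in all 24 libraries, at 0.05 to 2.70 TPM. The lowest values were in XY E12.5, where the libraries held 5, 7 and 7 reads (0.05, 0.17 and 0.22 TPM), all below the 1.01, 1.36 and 0.78 TPM of XX E12.5. XX was higher by 1.92 at E12.5 (SE 0.58, adjusted p 0.0066 in edgeR). At E13.5 XX libraries held 1.22, 1.02 and 1.37 TPM and XY libraries 0.16, 0.27 and 0.89 TPM, which did not overlap either. That difference (1.31, SE 0.53, adjusted p 0.036) was lost without XX E13.5 replicate 3 (1.15) and without XY E13.5 replicate 1 (1.12) or 2 (1.05), and it was 1.95 (adjusted p 0.010) without XY E13.5 replicate 3. In XY, Inhba fell by 2.40 on the log2 scale from E11.5 to E12.5 (SE 0.56, adjusted p 0.0012), from 1.0, 0.61 and 2.70 TPM, of which the highest was replicate 3, the XY library with the most Xist. Without that library the step was -1.56 (adjusted p 0.020). At E15.5 XX held 1.71, 1.31 and 1.42 TPM and XY 1.04, 1.24 and 1.30 TPM, a difference of 0.38 that did not pass (adjusted p 0.51). Whether the difference changed with stage depended on the libraries and the model used. The adjusted p for interaction was 0.10 over all libraries in edgeR. It was 0.022 when replicate 3 of XX E11.5 was left out, 0.040 for replicate 2 of XY E11.5 and 0.044 for replicate 3 of XY E13.5. With all libraries kept, limma on log2(TPM + 0.1) gave an adjusted p of 0.022. At E11.5 the difference was 0.04 (adjusted p 0.96), and 1.28 with adjusted p 0.021 when XX E11.5 replicate 2 and XY E11.5 replicate 3 were both left out, a choice made after seeing the data.

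Fst, the follistatin gene, showed the opposite pattern to Amh. XX E11.5 libraries held 128.2, 401.0 and 101.3 TPM, of which the highest, replicate 2, was also highest in Foxl2 and Irx3. XX libraries held 566.5, 630.0 and 761.9 TPM at E12.5, 359.9, 350.05 and 295.8 TPM at E13.5 and 511.4, 519.7 and 515.1 TPM at E15.5. Fst was thus high in every XX library, and of the XX steps the rise from E11.5 to E12.5 passed (1.40, SE 0.39, adjusted p 0.0089 in edgeR), though not when fitted on those 6 libraries alone (1.36, adjusted p 0.16). XY libraries started at 3.16, 2.99 and 6.19 TPM at E11.5 and fell by 4.33 on the log2 scale (SE 0.78, adjusted p 1.0e-04) to 0.08, 0.16 and 0.19 TPM at E12.5. XY E13.5 libraries held 0.15, 0.33 and 0.18 TPM and XY E15.5 libraries 0.17, 1.10 and 0.15 TPM, or 2 to 22 reads. XX exceeded XY by 5.80 at E11.5 (SE 0.48, adjusted p 1.1e-08) and by 11.52 a stage later (SE 0.69). The excess was 10.80 in E13.5 libraries (SE 0.68) and 10.18 in E15.5 libraries (SE 0.64, adjusted p 2.6e-11). As ratios of pooled CPM, in stage order XX was 60.5 times XY (95% exact interval 55.3 to 66.3, for counting error only), 3008 times (1793 to 5502), 1854 times (1141 to 3244) and 1186 times (831 to 1759). Single libraries moved some of these values. Without XX E11.5 replicate 2, XX was 28.5 times XY at E11.5 (25.9 to 31.3), the difference there was 4.82 (adjusted p 3.5e-11 in edgeR) and the XX step to E12.5 was 2.38 (adjusted p 4.2e-07). XY E11.5 replicate 3, the XY library with the most Xist, held 231 of the 493 XY reads at that stage. Without that library XX was 75.5 times XY at E11.5 (66.8 to 85.6). XY E15.5 replicate 2 held 22 of 30 reads, and without it XX was 3050.02 times XY at E15.5 (1548 to 7065), a difference of 11.53 (adjusted p 3.1e-10).

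Fstl3, the follistatin-like gene, was expressed at a few TPM in both sexes and changed sign between them. XX libraries were higher at E11.5 (10.1, 6.60 and 8.91 TPM against 6.18, 5.17 and 5.82 TPM), at E12.5 (10.4, 9.60 and 8.10 TPM against 3.26, 3.06 and 4.33 TPM) and at E13.5 (9.18, 8.49 and 7.73 TPM against 2.39, 3.84 and 2.85 TPM). The differences were 0.64 (SE 0.16, adjusted p 0.0030 in edgeR), 1.22 (SE 0.16, adjusted p 1.6e-06) and 1.59 (SE 0.17, adjusted p 4.0e-08). At E15.5 the order was reversed, with 5.63, 7.54 and 5.70 TPM in XX and 10.8, 10.3 and 11.9 TPM in XY (a difference of -0.78, SE 0.16, adjusted p 2.0e-04). XY Fstl3 had risen by 1.90 from E13.5 (SE 0.17, adjusted p 1.1e-07). The XX step over the same interval was -0.47 (adjusted p 0.037) and was lost without XX E13.5 replicate 1 (-0.42) or 2 (-0.53) and without XX E15.5 replicate 1 (-0.44) or 3 (-0.49). The XY fall of 0.50 on the log2 scale from E11.5 to E12.5 (adjusted p 0.014) was lost without XY E11.5 replicate 1 (-0.40) or XY E12.5 replicate 2 (-0.43). The steps from E13.5 to E15.5 differed between the sexes by -2.37 (XX step minus XY step, SE 0.23, adjusted p 5.2e-07). The groups did not overlap at any stage.

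Acvr1b, which encodes the type I activin receptor, changed sign as Inha did. XX E11.5 libraries held 14.3, 7.28 and 12.54 TPM and XY E11.5 libraries 5.48, 9.30 and 6.60 TPM, which overlapped (log2 difference 0.74, SE 0.21, adjusted p 0.0069 in edgeR, and 0.10 when fitted on those 6 libraries). In XY, Acvr1b rose by 1.82 (SE 0.21, adjusted p 3.1e-07) to 25.0, 21.5 and 18.8 TPM at E12.5, and held 26.9, 23.9 and 31.5 TPM at E13.5 and 30.5, 30.2 and 30.7 TPM at E15.5. XX libraries stood at 10.1, 9.92 and 9.36 TPM at E12.5 and fell by 1.02 on the log2 scale (SE 0.22, adjusted p 0.0011) to 5.25, 3.94 and 3.20 TPM at E13.5, with 2.68, 4.03 and 2.13 TPM at E15.5. XX minus XY was thereby -1.35 at E12.5 (SE 0.21), -2.68 in E13.5 libraries (SE 0.22) and -3.34 in E15.5 libraries (SE 0.23, adjusted p 4.7e-11). The difference between the sexes' steps passed for E11.5 to E12.5 (-2.09, SE 0.29, adjusted p 9.0e-06) and for E12.5 to E13.5 (-1.33, SE 0.29, adjusted p 0.0023), and missed the threshold for E13.5 to E15.5 (-0.66, adjusted p 0.12).

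The genes of the type II receptors varied least. Acvr2a had group means between 11.503 ± 1.37 TPM in XX E15.5 and 14.8 ± 1.74 TPM in XX E12.5 (SD, n = 3), a 1.29-fold range. None of its differences between the sexes passed, and none of its steps did. The fitted differences were -0.01, 0.11, -0.11 and -0.01 at the 4 stages, each with SE 0.11, and adjusted p from 0.39 to 0.95 in edgeR. Acvr2b had group means from 4.03 ± 0.316 TPM in XY E15.5 to 7.23 ± 1.96 TPM in XX E11.5, a 1.79-fold range. It was called higher in XX at E11.5 (8.28, 4.97 and 8.43 TPM against 5.24, 7.15 and 6.06 TPM, log2 difference 0.49, SE 0.19, adjusted p 0.041), though the groups overlapped. The call was lost without XX E11.5 replicate 1 (0.25) or 3 (0.46) and without XY E11.5 replicate 1 (0.37) or 2 (0.52), and limma on log2(TPM + 1) gave 0.18 with adjusted p 0.49. At E15.5 XX libraries held 6.73, 6.26 and 6.57 TPM, all above the 3.68, 4.13 and 4.29 TPM of XY (log2 difference 0.49, SE 0.19, adjusted p 0.029). This call was lost without XX E15.5 replicate 3 (0.49) and without XY E15.5 replicate 1 (0.44) or 3 (0.49). Acvr2b also had a called XX step from E11.5 to E12.5 (-0.51) and a called XY step from E13.5 to E15.5 (-0.57), and both were lost when single libraries were left out: XX E11.5 replicate 1 or 3 or any XX E12.5 library for the first (-0.57 to -0.28), and XY E13.5 replicate 2 or 3 or any XY E15.5 library for the second (-0.62 to -0.48).

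**Figure D2:**
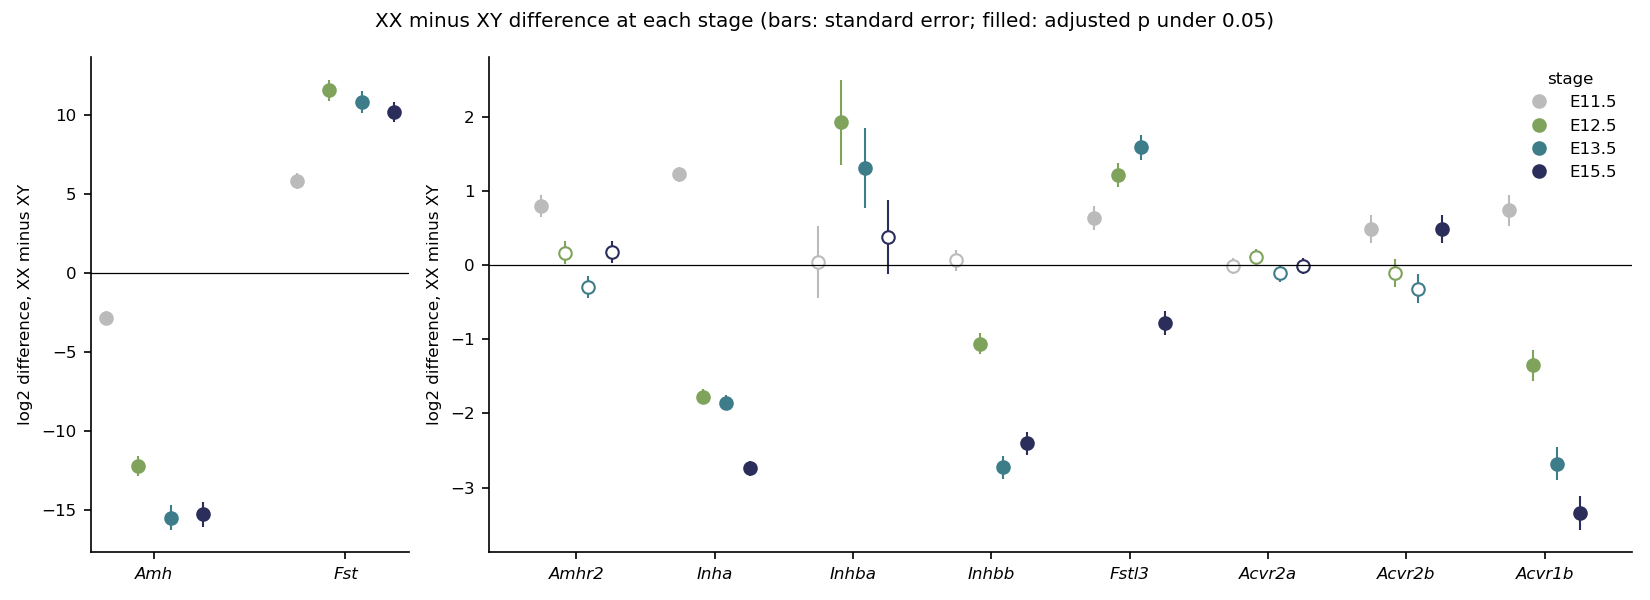
Log2 difference, XX minus XY, of each of the 10 genes at each stage, with bars for the standard error and filled points where the adjusted p was under 0.05 in edgeR. Amh and Fst, on their own scale, lie between -15.49 and 11.52, and among the others Inha, Fstl3 and Acvr1b have filled points on both sides of 0.

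Neighbouring groups in the order of levels often overlapped. For Amh, the order was XY E13.5, XY E15.5, XY E12.5, XY E11.5 and then the XX groups, and XY E13.5 overlapped XY E15.5. For Inha, the 3 later XY groups followed each other without overlap, XX E11.5, XX E12.5, XX E13.5 and XX E15.5 overlapped in turn, and XY E11.5 was lowest without overlap. For Fst, the 4 XX groups came before all XY groups, and XY E15.5, XY E13.5 and XY E12.5 overlapped. The levels of Acvr2a overlapped between all neighbours in its order, and so did those of Acvr2b and Inhba.

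Steps within a sex share the group of the middle stage, so they are set side by side and not compared. In XX, 5, 2 and 1 of the 10 genes were called in the steps from E11.5 to E12.5, E12.5 to E13.5 and E13.5 to E15.5, beside 34.0%, 31.7% and 25.6% of all genes. In XY, 8, 3 and 5 were called, beside 51.9%, 16.6% and 21.3% of all genes. A change at any stage was called for 6 genes in XX and 8 in XY, beside 74.0% and 70.3% of all genes. The 2 XY genes without it were Acvr2a and Acvr2b, of which Acvr2b (adjusted p 0.054) passed under some other settings. The XX count was less stable, at 5 to 9 with single libraries left out, against 8 to 9 in XY. In XX, the calls of Fst (adjusted p 0.097 in DESeq2) and Amhr2 were lost under some settings, and Fstl3, Acvr2a and Acvr2b passed under some. The counts of the XX steps and of the later XY steps rested on single libraries. Leaving each library out in turn gave 3 to 5, 2 to 5 and 0 to 2 calls in XX, and 7 to 8, 0 to 3 and 2 to 6 in XY.

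Ratios of TPM within a library set the subunits and their binding proteins against each other. No test was run on them, and an exact permutation of 3 against 3 libraries could give no two-sided p below 0.10. The ratio of Inha to the β subunits (Inhba plus Inhbb) was 10.9 ± 1.57 in XX E11.5 and 4.92 ± 0.579 in XY E11.5 (SD, n = 3), and the libraries did not overlap. At the later stages it was 8.05 ± 1.41 against 13.7 ± 1.27, then 19.4 ± 1.59 against 12.47 ± 1.79, and last 20.3 ± 1.77 against 30.6 ± 5.15, so the sex with the higher ratio alternated from stage to stage. At E13.5 Inha itself was higher in XY, but the β subunits were lower in XX by a larger factor. The transcript of α exceeded that of both β genes together in all 24 libraries, with ratios from 4.25 to 36.2.

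The ratio of the follistatins (Fst plus Fstl3) to the β subunits parted the sexes further. In XX it was 6.64, 23.3 and 5.32 in the libraries of E11.5, and then 31.1 ± 3.99, 39.7 ± 4.46 and 63.2 ± 1.48 (SD, n = 3) at the later stages in order. In XY it was 0.507 ± 0.155, 0.0994 ± 0.0145, 0.0630 ± 0.0127 and 0.303 ± 0.0508 at the same stages. Follistatin transcripts were therefore more abundant than those of the β subunits in all 12 XX libraries and less abundant in all 12 XY libraries. The XY value at E15.5 lay above those of E12.5 and E13.5 in every library, and at E15.5 the main part of it was Fstl3 (10.3 to 11.9 TPM against 0.15 to 1.10 TPM of Fst).

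**Figure D3:**
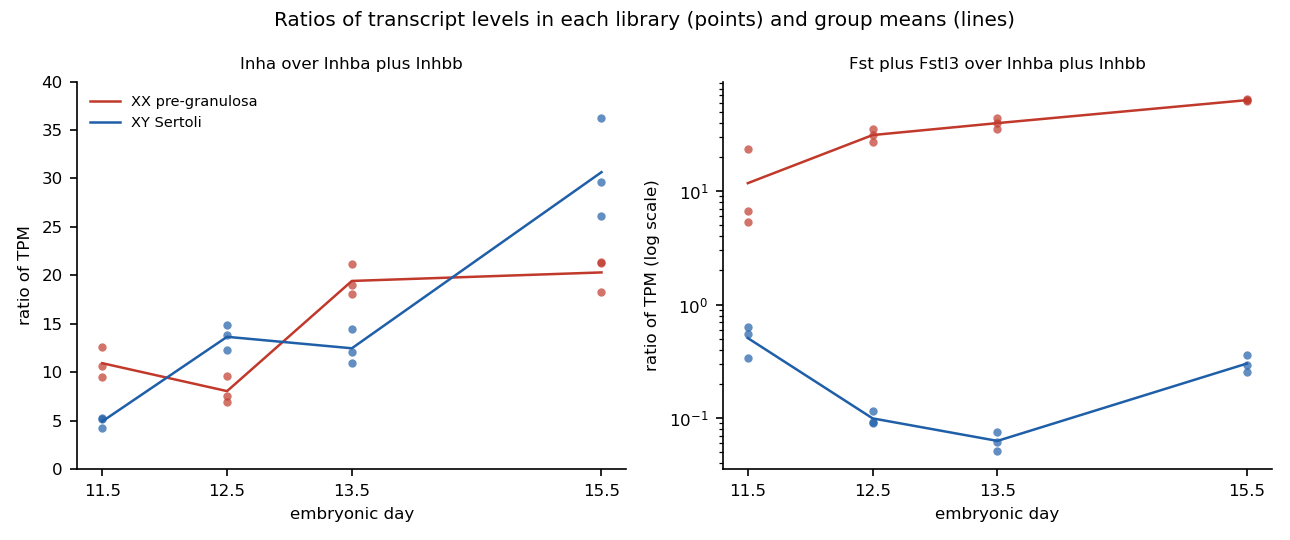
Ratio of Inha to Inhba plus Inhbb (left, linear axis) and of Fst plus Fstl3 to Inhba plus Inhbb (right, log axis) from TPM, in each library (points) and as group means (lines) against embryonic day. The left ratio changes order between the sexes at each stage, and the right ratio is above 5 in every XX library and below 1 in every XY library.

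Other ratios followed single genes. Inhbb exceeded Inhba in every library, from 3.91-fold to 728-fold, and the highest ratios, in XY E12.5, rested on 5 to 7 reads of Inhba. The ratio of Amh to its receptor Amhr2 was 0.121 ± 0.0464 in XY E11.5 and 8.42 ± 0.592, 7.61 ± 0.812 and 9.67 ± 0.558 in the later XY groups, whereas in XX it did not exceed 0.0263 in any library. Acvr2a exceeded Acvr2b in all 24 libraries, from 1.40-fold to 4.22-fold.

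Among 44 further genes of the pathway, 38 could be tested, and 16, 25, 27 and 30 of them differed between the sexes at the 4 stages in order. That is 42.1%, 65.8%, 71.1% and 78.9% of those tested, beside 42.0%, 62.1%, 66.1% and 69.4% of all genes. They were split between higher in XX and higher in XY as 8 and 8, 13 and 12, 14 and 13, and 17 and 13. The median difference over the list was -0.10, 0.04, -0.01 and 0.03 on the log2 scale, beside 0.02, -0.01, 0.01 and 0.05 over all genes. Fitted on the E11.5 libraries alone, 9 were called at that stage, beside 16.4% of all genes.

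Of 10 further ligand genes, 5 were too low to test (Inhbc, Inhbe, Nodal, Gdf3 and Mstn, each at a mean of 0.203 TPM or less in every group). Inhbc and Inhbe encode the other β subunits. Gdf11, a ligand of the same type II receptors, was higher in XX at all 4 stages, by 1.17, 0.74, 1.80 and 3.65 (SE 0.18 to 0.22), with 11.6 TPM in XX E15.5 and 0.963 TPM in XY E15.5. Tgfb2 was also higher in XX throughout, most at E12.5 (4.48, SE 0.39, adjusted p 3.7e-09 in edgeR). Tgfb3 was higher in XY at E13.5 and E15.5 (-1.26 and -1.56, each with SE 0.24), and Tgfb1 turned from higher in XX at E11.5 (2.27) to higher in XY at E13.5 (-2.87) at group means of no more than 2.88 TPM.

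Among receptors and co-receptors, 3, 7, 7 and 10 of the 11 tested were called at the 4 stages, beside 42.0%, 62.1%, 66.1% and 69.4% of all genes. Acvrl1, a type I receptor better known from endothelium, went from higher in XX at E11.5 (1.06, SE 0.20) to higher in XY by E15.5 (-3.94, SE 0.19, adjusted p 2.1e-13 in edgeR), with means of 4.40 TPM in XX E15.5 and 62.9 TPM in XY E15.5. The endothelial genes Cdh5 and Tek were at means of no more than 2.87 TPM in any group, and Pecam1 was at 8.41 TPM in XY E15.5. All 5 endothelial markers listed summed to 11.25 to 14.0 TPM in XX E15.5 and 10.9 to 12.2 TPM in XY E15.5. Which cells the Acvrl1 transcripts came from was not tested. Tgfbr3, which encodes betaglycan, the co-receptor through which inhibin binds type II receptors, was higher in XX from E12.5 on (1.86, 2.37 and 2.67, SE 0.16 to 0.19), and its mean in XY went from 12.2 TPM at E11.5 to 0.697 TPM at E15.5. Tgfbr3l, a gene related to betaglycan that encodes an inhibin B co-receptor, was higher in XY at the last 2 stages (-1.20 and -1.04, SE 0.23 each), with 58.0 TPM in XX E15.5 and 122.6 TPM in XY E15.5. The type I receptor gene Acvr1 was higher in XY at all 4 stages (-0.79, -0.76, -1.03 and -0.62, SE 0.16), and Acvr1c, the type I receptor gene closest in role to Acvr1b, was at most 1.46 TPM in any group mean.

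Of the 8 SMAD genes, 4, 6, 5 and 4 were called at the 4 stages, beside 42.0%, 62.1%, 66.1% and 69.4% of all genes. Those higher in XX and those higher in XY numbered 0 and 4, 4 and 2, 3 and 2, and 2 and 2. Smad2, a transducer of activin signals, was higher in XY at all 4 stages (-0.24, -0.64, -0.60 and -0.94, each with SE 0.07), while Smad3 was called at E12.5 only (0.54, SE 0.15, higher in XX). Smad7, an inhibitory SMAD that is itself a common target of the pathway, was higher in XY at every stage (-0.45, -1.58, -1.50 and -1.73, SE 0.13 to 0.14). Of the 14 inhibitors and processing genes, 5, 9, 10 and 11 were called at the 4 stages, beside the percentages of all genes just given. Those higher in XX and those higher in XY numbered 2 and 3, 3 and 6, 5 and 5, and 6 and 5. Among them, 3 others known as targets or repressors in the pathway were higher in XY from E12.5 to E15.5. These were Skil (-2.26, -1.54 and -1.41, SE 0.26), Pmepa1 (-1.57, -2.46 and -2.81, SE 0.36 to 0.38) and Tgif1 (-1.08, -1.48 and -1.66, SE 0.10 to 0.11), of which Tgif1 was higher in XY at E11.5 too (-1.22). Other members of these lists did not share that direction: Ski was higher in XX from E12.5 on (0.35, 0.70 and 0.41, SE 0.09), and Bambi, a decoy receptor gene, was not called at any stage. Of the convertases that cleave precursors of the family, Pcsk5 was higher in XY at all 4 stages, by up to -3.16 (SE 0.17) at E15.5, and Pcsk6 was higher in XX at the last 2 stages (1.25, SE 0.15, and 2.60, SE 0.16).

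**Figure D4:**
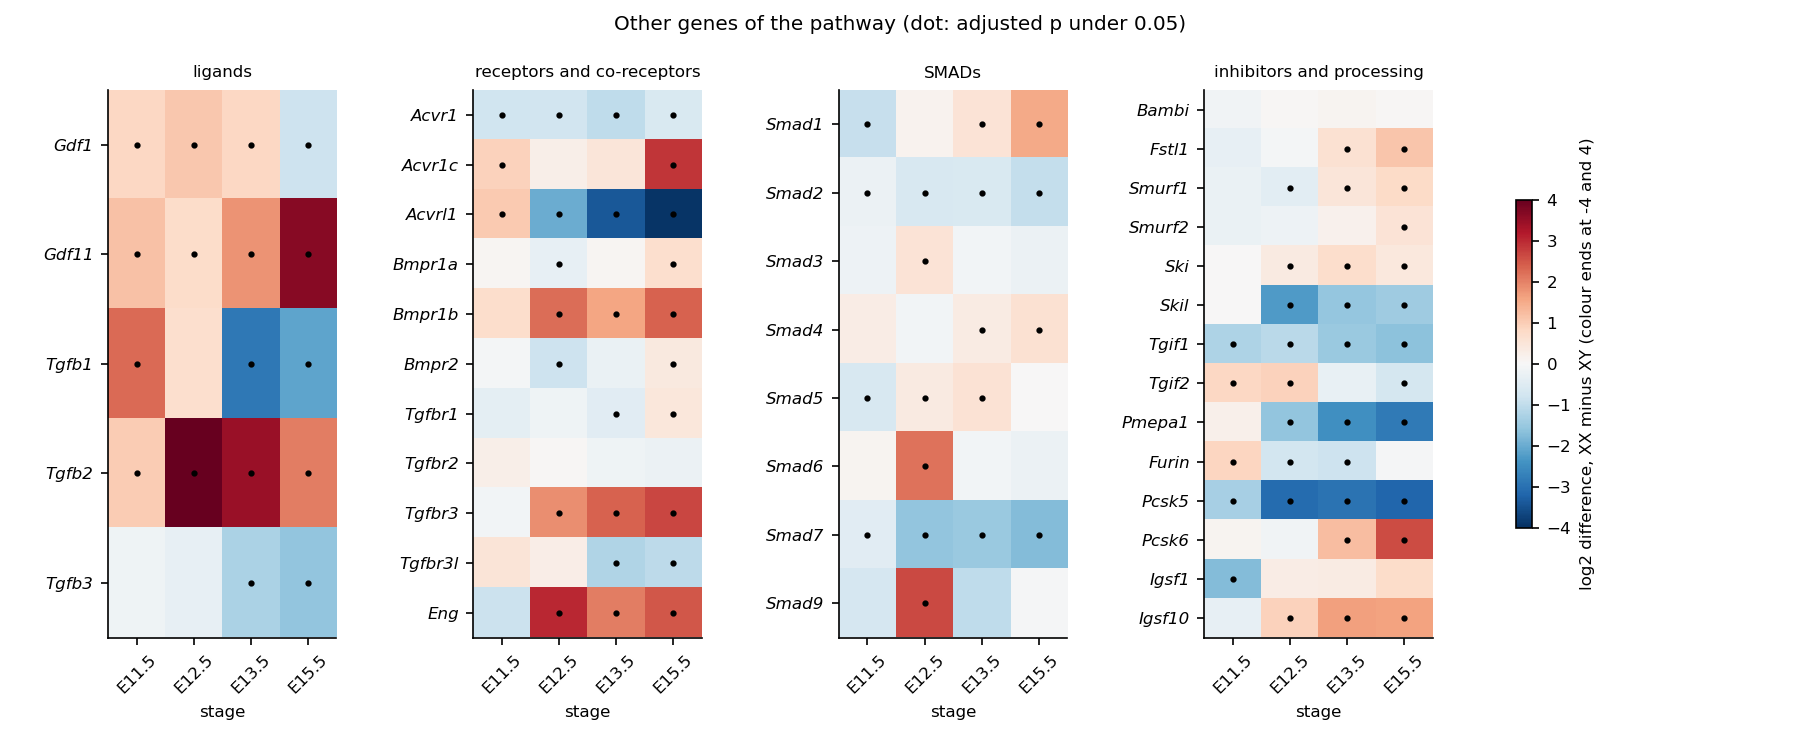
Log2 difference, XX minus XY, of the 38 other pathway genes tested at each stage, grouped as ligands, receptors and co-receptors, SMADs, and inhibitors and processing, with a dot where the adjusted p was under 0.05. Acvrl1, Smad7, Skil, Pmepa1 and Pcsk5 are blue (higher in XY) from E12.5 on, and Gdf11, Tgfb2, Tgfbr3 and Bmpr1b are red (higher in XX).

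Of 7 genes of factors or cofactors known to act on the Amh promoter, 5, 5, 6 and 7 differed between the sexes at the 4 stages. That is 71.4%, 71.4%, 85.7% and 100% of the list, beside 42.0%, 62.1%, 66.1% and 69.4% of all genes. Those higher in XY numbered 5, 4, 5 and 6, and 1 of them at every stage was Sox9, the gene of the XY sort. Sox8 was at 6.84 TPM in XY E11.5 and 51.2 TPM in XY E12.5, against 1.36 and 1.55 TPM in XX, so that its difference went from -2.62 (SE 0.26) to -5.09 (SE 0.25). Nr5a1 was at 309.8 TPM in XY E11.5 and at 324.0 TPM in XY E12.5, and XX E11.5 libraries held 130.4, 110.7 and 112.7 TPM. The part of these factors in the level of Amh was not tested. Gata4 differed by -0.39 and -0.41 at E11.5 and E12.5, which did not pass, and by -2.54 (SE 0.23) at E13.5, when its XX mean was 105.0 TPM and its XY mean 492.3 TPM. Nr0b1, known as a repressor, was the exception, with XX higher from E12.5 on (0.42, 0.56 and 0.43).

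Among genes with a mean of at least 10 CPM in a group, those whose 8 group means, as log2(CPM + 1), were most alike to those of a member are given as a description, with Pearson's r over these 8 groups, which share depth and composition. For Amh they were Ankrd63 (r = 0.997), Rtn4rl1 (r = 0.995) and Cxadr (r = 0.995). For Fst they were Stx11 (r = 0.998), Csgalnact1 (r = 0.997) and Lypd6b (r = 0.994). For Inha they were Ensa (r = 0.990), Acvrl1 (r = 0.981) and Nfkbib (r = 0.978), of which Acvrl1 belongs to the receptor list. For Inhbb they were Polg (r = 0.992), Zfp219 (r = 0.991) and Scap (r = 0.991). Amhr2 was most like Sh2d4a (r = 0.975), Pigv (r = 0.955) and Cryl1 (r = 0.954), and Inhba most like Zfp948 (r = 0.973), Cdk2 (r = 0.945) and Mex3b (r = 0.941).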

How the data were processed

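Polyadenylated RNA of sorted cells was amplified with a low-input cDNA kit, per the labels' protocols, which name no molecular identifiers. Reads copied from the same molecule can therefore not be told apart. The intervals cover counting error only, treat each read as separate and may be too narrow. The authors deposited estimated counts per gene (17.5% of values were not whole) and TPM, and the genome build was mm10 per the submitters' processing notes. The aligner, counting program, annotation and use of strand are not given in the sources used here. The deposited TPM of the listed genes summed to 0.939 to 0.962 of the full TPM total in a library.

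Estimated counts were rounded to whole numbers. Genes passing filterByExpr (16190 of 32040) were scaled by TMM and fitted with robust quasi-likelihood models in edgeR 4.0.16 (R 4.3.3) as 8 group means with 16 residual degrees of freedom. The common biological coefficient of variation was 17.4%. Calls were made at a Benjamini-Hochberg adjusted p of 0.05 over all genes tested. The SE was taken as the size of the log2 difference over the square root of F and is approximate. Depth set a limit of 0.0774 to 0.260 CPM at 3 counts. Alternatives used limma 3.58.1, DESeq2 1.42.0, other filters, thresholds and library sets. Groups came from the titles. Named genes are the members, the listed pathway, regulator and marker genes, and, for 6 members, the 3 genes with the highest r, leaving out predicted genes and pseudogenes by name. The members and lists were chosen with earlier results of these data known. Promoter windows came from a RefSeq table (GRCm38.p6), and protein sequences were not used here. Figures were drawn with matplotlib 3.10.9.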

Additional observations from a re-analysis of the deposited data

Results flagged for a closer look

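For 8 of the 10 genes the difference between XX and XY cells changed with stage by a test of the interaction in edgeR, with adjusted p-values over all genes, beside 70.1% of all genes tested. Inha had an adjusted p of 8.23e-14, Inhbb 8.71e-10, Amh 1.06e-09 and Acvr1b 2.49e-09. Fstl3 had an adjusted p of 1.06e-07, Fst 9.27e-06, Amhr2 0.00131 and Acvr2b 0.0183. Inha, Acvr1b and Fstl3 were called in opposite directions at different stages, whereas Amh and Fst kept their direction and changed in size. The Acvr2b call was lost without XX E13.5 replicate 2 (adjusted p 0.051).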

How the results depend on the processing

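No called difference of a member changed direction under any setting run. Leaving out single libraries gave 6 to 7, 7 to 7, 6 to 8 and 6 to 7 genes called between the sexes at the 4 stages, 7 to 9 for the interaction, and in the steps 3 to 5, 2 to 5 and 0 to 2 (XX) and 7 to 8, 0 to 3 and 2 to 6 (XY). With only the libraries compared, 2 genes were called at E11.5 and 0, 5 and 2 in the XX steps, and 9 pathway genes at E11.5. With an added threshold of 1 on the absolute log2 value, 3 were called at E11.5, 2 and 0 in the first and last XX steps, 0 and 1 in the later XY steps, and 7, 13, 17 and 19 pathway genes at the 4 stages. With at least 10 counts in every library, which leaves Amh, Inhba and Fst untested, 4 were called at E12.5, 4 at E13.5, 3 in the first XX step, 5 in the first XY step and 5 at any stage in XY. Without a low-count filter the last XX step had 0 calls. limma gave 3 (both pseudocounts) and, with no filter, 2 in the first XX step, 0 in each form in the last, and, with no filter, 1 and 3 in the later XY steps. Without XX E11.5 library 2 and XY E11.5 library 3, a choice made after seeing the data, 5 and 2 were called in the later XX steps. limma moved the median difference of all genes at E12.5 to 0.14 (pseudocount 1) and 0.17 (0.1), from -0.01.

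Differences that changed sign were not called, and the cause was not tested. Inhba at E11.5 was -0.069 in limma with a pseudocount of 1, with or without filter, -0.10 with 0.1, and -0.61 to 0.89 with libraries left out. Inhbb at E11.5 was -0.041 in the setting added after seeing the data and -0.044 to 0.27 with libraries left out. Acvr2a was 0.016 at E11.5 and 0.022 at E15.5 with DESeq2 size factors, 0.022 and 0.042 with at least 10 counts, 0.014 and 0.024 in DESeq2, 0.10 at E11.5 in the added setting, and -0.13 to 0.11 and -0.066 to 0.15 with libraries left out. Acvr2b at E12.5 was 0.00096 with at least 10 counts, 0.38 and 0.45 in limma with pseudocounts of 1 and 0.1, 0.38 with no filter, and -0.20 to 0.0088 with libraries left out.

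Same-numbered libraries did not deviate together on average, with a mean correlation of 0.004 against -0.002 for pairs with different numbers. Single same-numbered pairs ran from -0.193 to 0.351, and 15 of 84 had a correlation over 0.1. Of the 24 libraries, 11 correlated best with their own number. A replicate block gave 7, 7, 7 and 7 genes called between the sexes, 5, 2 and 1 in the XX steps, 8, 3 and 6 in the XY steps, 6 and 8 at any stage, 8 for the interaction, and 16, 25, 28 and 30 pathway genes. Amh in XX and Fst in XY from E12.5 on rest on few reads, which limits the precision of their differences.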
